A study of Mus musculus with 15 samples.

Results

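The PPAR, LXR and RXR nuclear receptors and the PGC-1 coactivators were followed in posterior eyecups of mice carrying the FUN025 mutation of Tmem135, a gene needed for normal mitochondria and lipid handling in the retinal pigment epithelium (RPE). The set held 10 genes chosen by name: the PPAR receptors Ppara, Ppard and Pparg, the RXR receptors Rxra, Rxrb and Rxrg, the LXR receptors Nr1h3 (LXR alpha) and Nr1h2 (LXR beta), and the coactivators Ppargc1a and Ppargc1b. They were 10 of 55421 genes listed in the count files, and each of the 10 was among the 18979 genes that passed the low-count filter.

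RNA was sequenced from 4 WT, 6 Tmem135 FUN025/+ and 5 Tmem135 FUN025/FUN025 mice, all 2.5 months old and on the C57BL/6J background, with 1 library per mouse. WT mice were C57BL/6J animals carrying no FUN025 allele, FUN025/+ mice carried the mutation on 1 allele and FUN025/FUN025 mice on both. Eyes of males and females were used, but no label gives the sex of a mouse. The study lists as many males as females for WT, more males for FUN025/+ and more females for FUN025/FUN025. Sex therefore differed in part with genotype and entered no fit. The neural retina had been removed, which leaves RPE, choroid, sclera and attached tissue in the sample.

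PPAR receptors bind DNA as partners of RXR and are switched on by fatty acids and eicosanoids, while LXR receptors, also paired with RXR, are switched on by oxysterols. PPAR targets import, store and burn fatty acids, and LXR targets export cholesterol and make fatty acids. PGC-1 proteins bind these receptors and raise the transcription of genes for mitochondria and oxidative metabolism. In the RPE, which takes up lipid-rich photoreceptor outer segments every day, both pathways are known for handling that lipid load.

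Total counts were 18094977 to 20029919 in WT libraries and 10903183 to 15038383 in the mutant libraries, so that every WT library was deeper than every mutant library and depth cannot be told apart from genotype in the comparisons with WT. Summed RPE markers stood between 16068 and 21582 CPM (read counts scaled to a common library size) in every library, and edgeR called 0 of 7 in any comparison. They were at an unadjusted p under 0.05 in 0, 1 and 5 of 7 genes for FUN025/+ against WT, FUN025/FUN025 against WT and FUN025/FUN025 against FUN025/+, and DESeq2 called 0 in each. Rod markers remained in every library, at 243 to 2406 CPM in WT, 90.9 to 692 CPM in FUN025/+ and 94.5 to 428 CPM in FUN025/FUN025 eyecups, with WT replicate 2 the highest. At an unadjusted p under 0.05 there were 8 of 10 in FUN025/+ and 10 of 10 in FUN025/FUN025 against WT. Over all genes these shares were 28.8% and 28.6%. In each of these comparisons edgeR called 0 rod markers and DESeq2 called 2. Striated muscle markers summed to 4423 to 7848 CPM in WT, 2386 to 5938 CPM in FUN025/+ and 3594 to 4464 CPM in FUN025/FUN025 eyecups, and 4 and 3 of 12 were called lower in FUN025/+ and FUN025/FUN025 than in WT. In bulk tissue, fewer cells of a type and less RNA per cell cannot be told apart. Tmem135 averaged 64.0 ± 2.99 CPM (SD, n = 4) in WT, 75.0 ± 7.30 CPM (n = 6) in FUN025/+ and 88.3 ± 4.57 CPM (n = 5) in FUN025/FUN025 eyecups, and it was higher than in WT in both mutants, by 0.23 (adjusted p = 0.0248) and 0.47 (adjusted p = 0.000148) on the log2 scale. The call in FUN025/+ eyecups was lost without WT replicate 4 (adjusted p = 0.0913) or FUN025/+ replicate 3 (adjusted p = 0.054), with FUN025/+ and WT mice alone in the fit (adjusted p = 0.0508), and with rod and striated muscle or fat cell markers as covariates (0.34, adjusted p = 0.236, and 0.18, adjusted p = 0.24). Counts per gene do not show the mutation.

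All 10 genes were expressed in every library, with between 42 and 2215 reads. The level of a gene is given here as CPM after TMM scaling, and levels of different genes are compared as CPM per kilobase (kb) of merged exon. In WT eyecups Nr1h2 stood first at 26.8 ± 1.25 CPM per kb (SD, n = 4), ahead of Rxra at 19.4 ± 0.820, Rxrb at 14.0 ± 0.546 and Ppargc1a at 8.43 ± 0.861 CPM per kb, and no pair of neighbours among these 4 genes overlapped between mice. Nr1h3 at 4.90 ± 0.537 and Ppard at 4.80 ± 0.407 CPM per kb came next and overlapped. Rxrg at 2.48 ± 0.376, Ppargc1b at 2.33 ± 0.505, Pparg at 2.07 ± 0.445 and Ppara at 1.93 ± 0.272 CPM per kb formed the lowest group, in which every neighbouring pair overlapped. The first 4 ranks were held by the same genes in FUN025/+ and FUN025/FUN025 eyecups, and again did not overlap. In both mutants Ppard and Nr1h3 changed places within their overlap, and in FUN025/+ eyecups Nr1h3 also overlapped Pparg.

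**Figure D1:**
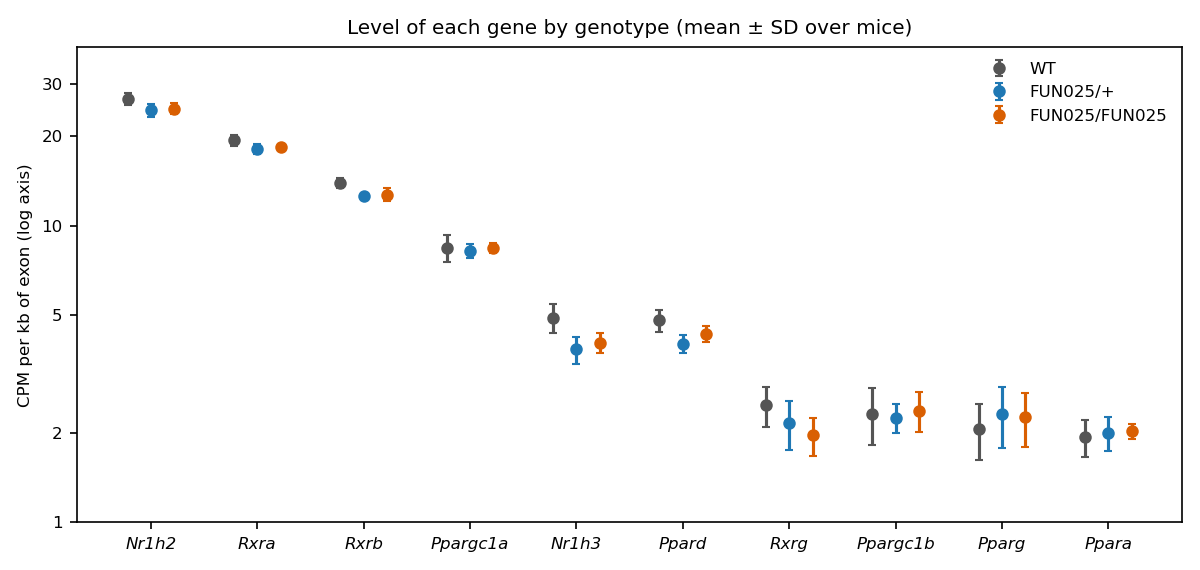
Level of each gene in CPM per kb of merged exon on a log axis, as the mean ± SD over 4 WT, 6 FUN025/+ and 5 FUN025/FUN025 mice, ordered by the WT mean. Nr1h2, Rxra, Rxrb and Ppargc1a lie above the other genes in every genotype, from 26.8 down to 8.43 CPM per kb in WT.

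The genes lie apart in the genome, at these positions on GRCm38 in GENCODE M21. Ppard (ENSMUSG00000002250) is at chr17:28232700-28301474 on the plus strand and Rxrb (ENSMUSG00000039656) at chr17:34031812-34038399 on the plus strand. Nr1h3 (ENSMUSG00000002108) is at chr2:91184061-91202834 on the minus strand and Rxra at chr2:27676440-27762957 on the plus strand. Ppara is at chr15:85734983-85802819, Pparg at chr6:115360951-115490399 and Rxrg at chr1:167598384-167639623, all on the plus strand. Nr1h2 is at chr7:44549616-44553951, Ppargc1a at chr5:51454250-51567726 and Ppargc1b at chr18:61298136-61400431, all on the minus strand. Counts cover the exons of each gene, and at most 0.608% of the stretches of 31 bases of any of the 10 genes occurred in another gene.

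Within each family 1 gene held the largest share of the length-scaled level. Ppard, the PPAR found in most tissues, held 54.5% ± 2.69 of the PPAR total in WT (SD, n = 4), 48.3% ± 5.23 in FUN025/+ (n = 6) and 50.2% ± 1.85 in FUN025/FUN025 eyecups (n = 5). Pparg, the PPAR of fat cells and macrophages, held 23.4%, 27.7% and 26.1% in the same order, and Ppara, the PPAR of fatty acid burning tissues, 22.1%, 24.1% and 23.7%. Rxra held 54.2%, 55.2% and 55.7% of the RXR total, Rxrb 39.0%, 38.2% and 38.4%, and Rxrg, which is known from cones and muscle, 6.90%, 6.58% and 5.94%. Nr1h2 made up 84.6%, 86.5% and 86.0% of the LXR total, and Ppargc1b 21.5%, 21.5% and 22.0% of the PGC-1 total, the rest being Ppargc1a. These shares are given without a test.

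Between FUN025/+ and WT eyecups, 3 of the 10 genes were lower, which were Ppard, Nr1h3 and Rxrb, and 0 were higher. They include 1 receptor of each of the PPAR, LXR and RXR families and neither coactivator. Over all genes tested the same comparison called 13.7% of genes, 7.09% as higher and 6.61% as lower. The median log2 fold change of the 10 genes was -0.113, beside -0.0023 over all genes, and 8 of the 10 values were below 0. The test was edgeR's quasi-likelihood test with all 15 mice in 1 fit and Benjamini-Hochberg adjustment over 18979 genes, called at an adjusted p under 0.05.

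Ppard had the values 32.8, 37.0, 34.7 and 39.9 CPM in the 4 WT mice. In FUN025/+ mice it lay between 27.2 and 32.6 CPM with a median of 30.1, and in the FUN025/FUN025 mice it was at 34.7, 33.5, 33.4, 31.1 and 29.6 CPM. Every FUN025/+ mouse was below every WT mouse, while FUN025/FUN025 mice overlapped both. Ppard fell by 16.8% in FUN025/+ eyecups, with a log2 fold change of -0.27 ± 0.067 (SE), a 95% interval from -0.41 to -0.12 and an adjusted p of 0.0138. In FUN025/FUN025 eyecups the log2 fold change against WT was -0.15 (adjusted p = 0.161).

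Nr1h3, the LXR that is strongest in macrophages, fat and liver, had 10.6, 13.7, 12.9 and 12.1 CPM in the WT mice. It ranged from 7.94 to 10.6 CPM in FUN025/+ mice, with a median of 9.83, and had 11.3, 10.3, 10.2, 9.86 and 9.07 CPM in the FUN025/FUN025 mice. Both mutant groups met the WT range only at its lowest mouse. Nr1h3 fell by 22.0% in FUN025/+ eyecups, with a log2 fold change of -0.36 ± 0.100 (interval -0.57 to -0.15, adjusted p = 0.0229). In FUN025/FUN025 eyecups the value was -0.28 (adjusted p = 0.0802). Of the exon bases of Nr1h3, 1.35% lie in another annotated gene, Gm13783.

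Rxrb, the RXR found in most tissues, had 56.3, 53.3, 54.2 and 58.1 CPM in WT mice. FUN025/+ mice lay between 48.1 and 51.7 CPM with a median of 49.4, and FUN025/FUN025 mice were at 52.4, 48.8, 47.2, 53.4 and 50.8 CPM. All FUN025/+ mice were below all WT mice, and 1 FUN025/FUN025 mouse reached into the WT range. Rxrb fell by 10.1% in FUN025/+ eyecups, at a log2 fold change of -0.15 ± 0.045 (interval -0.25 to -0.06, adjusted p = 0.0314), and its log2 fold change in FUN025/FUN025 eyecups was -0.13 (adjusted p = 0.0661). Among the 10 genes, Ppard and Rxrb were those whose WT and FUN025/+ values did not overlap, so 2 of 10 beside 10.9% of all genes tested.

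**Figure D2:**
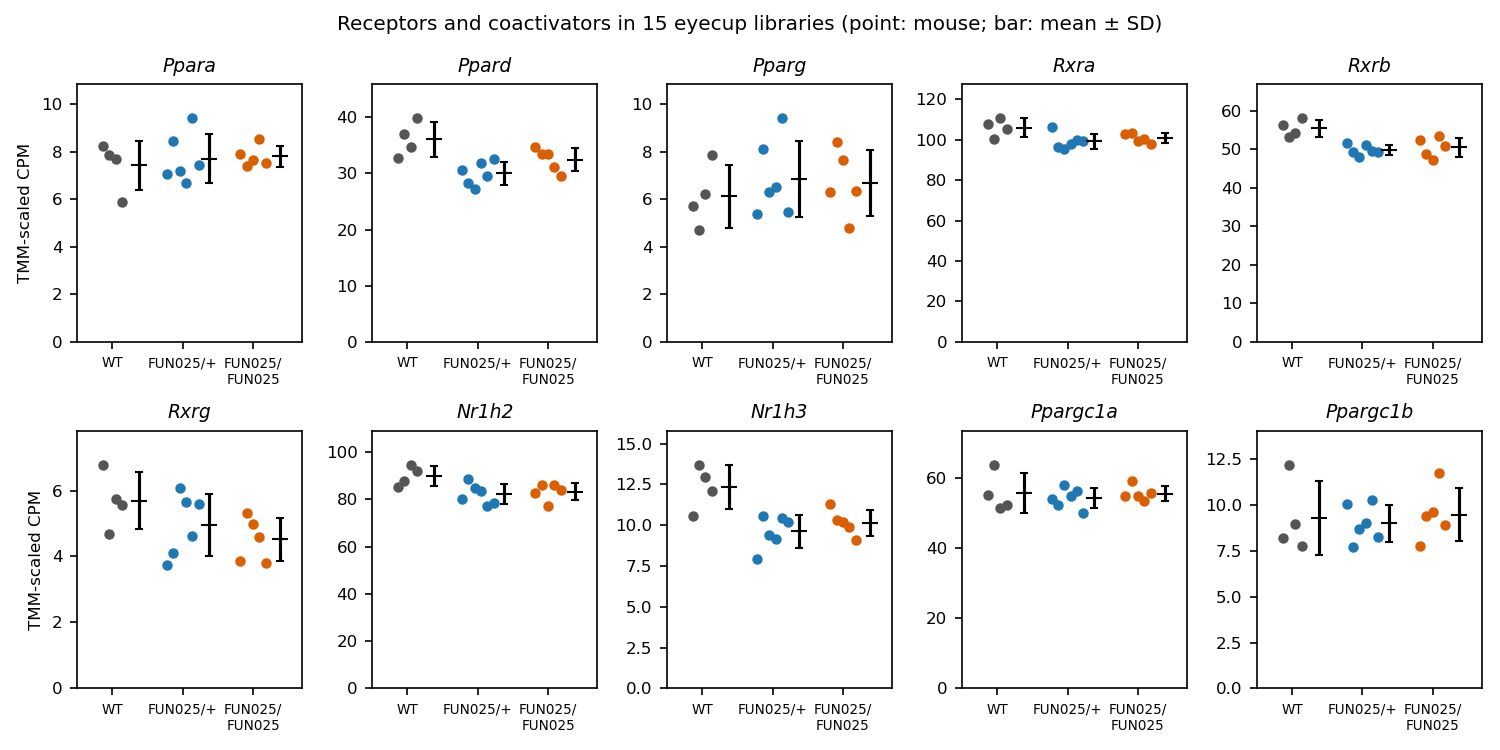
TMM-scaled CPM of each of the 10 genes on axes from 0, with 1 point per mouse and the mean ± SD of each genotype beside the points. Ppard and Rxrb are the genes whose WT and FUN025/+ points do not overlap. The highest FUN025/+ point of Nr1h3 meets the lowest WT point at 10.6 CPM.

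Without WT replicate 4 none of the 10 genes was called, and the adjusted p was 0.0672 for Ppard, 0.0505 for Nr1h3 and 0.106 for Rxrb. Without WT replicate 3 only Ppard was called, and 2 calls were left without WT replicate 1 or 2, where Rxrb and Nr1h3 were lost in turn, or without FUN025/+ replicate 2, 3 or 5, where Rxrb was lost. With rod and striated muscle markers as covariates 0 of 10 genes were called, at log2 fold changes of -0.12 for Ppard, -0.29 for Nr1h3 and -0.23 for Rxrb and adjusted p of 0.773, 0.588 and 0.278. Rxrb was also not called with no low-count filter (-0.16, adjusted p = 0.0827). With fat cell markers as a covariate 0 of 10 were called as well, at -0.16, -0.30 and -0.13. Summed fat cell markers were at 77.5 to 103 CPM in WT, 57.0 to 74.0 CPM in FUN025/+ and 61.2 to 79.0 CPM in FUN025/FUN025 eyecups. Most of each sum was Plin4, at 70.4 to 94.6, 51.3 to 68.7 and 52.7 to 73.2 CPM, so the sum mainly follows this gene. Of the 6 markers tested, 1 was called lower in FUN025/+ eyecups, and it was Plin4. The marker Ucp1 was at 0 in every FUN025/+ library.

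The other 7 genes did not pass the test between FUN025/+ and WT. Rxra, the main partner receptor here, was at 106 ± 4.48 CPM (SD, n = 4) in WT and 99.1 ± 3.90 CPM (n = 6) in FUN025/+ eyecups, a log2 fold change of -0.10 (interval -0.18 to -0.01, adjusted p = 0.134). Nr1h2, the broadly expressed LXR, was at 89.9 ± 4.19 CPM (n = 4) and 82.1 ± 4.24 CPM (n = 6), a log2 fold change of -0.13 (interval -0.23 to -0.03, adjusted p = 0.0822). For Rxrg the value was -0.20 (interval -0.52 to 0.13). Ppara averaged 7.42 ± 1.04 CPM in WT against 7.70 ± 1.03 CPM in FUN025/+ eyecups, with an interval from -0.19 to 0.29, and Pparg at 6.11 ± 1.32 and 6.86 ± 1.60 CPM, with an interval from -0.22 to 0.55. Ppargc1a, at 55.6 ± 5.68 and 54.2 ± 2.82 CPM, had an interval from -0.16 to 0.09, and Ppargc1b, between 7.70 and 12.2 CPM in these mice, one from -0.33 to 0.24. The wide intervals belong to the genes with the fewest reads: Rxrg had 42 to 122 reads in a library and Pparg 58 to 141.

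Between FUN025/FUN025 and WT eyecups 0 of the 10 genes were called by edgeR and 0 by DESeq2, beside 14.0% of all genes tested by edgeR. At an unadjusted p under 0.05 there were 4, which were Ppard, Rxrb, Nr1h2 and Nr1h3, beside 28.6% of all genes. In this comparison 7 of 10 values were below 0, the median log2 fold change was -0.092 against -0.0071 over all genes, and 0 of 10 genes had values that did not overlap, beside 14.8% of all genes. In FUN025/FUN025 eyecups Nr1h3 was called without WT replicate 1 (log2 fold change -0.34, adjusted p = 0.0388). Rxrg, at 5.69 ± 0.865 CPM (SD, n = 4) in WT and 4.52 ± 0.664 CPM (n = 5) in FUN025/FUN025 eyecups, had a log2 fold change of -0.33 (interval -0.67 to 0.01, adjusted p = 0.181). With the rod and muscle covariates it was at -0.13 in this comparison and at 0.04 in FUN025/+ eyecups against WT. Summed cone markers were at 59.0 to 99.7 CPM in WT and 54.6 to 63.5 CPM in FUN025/FUN025 eyecups, 1 of the 8 tested was called lower, and their part in the result was not tested. Both comparisons with WT share the same 4 WT mice.

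Between FUN025/FUN025 and FUN025/+ eyecups 0 of the 10 genes were called by edgeR or by DESeq2, beside 0.522% of all genes called by edgeR. At an unadjusted p under 0.05 there were 0, beside 6.23% of all genes. Again 0 of 10 had values that did not overlap, beside 1.12% of all genes. The smallest adjusted p was 0.925, and the intervals of the 10 genes lay between -0.45 and 0.35. For Ppard, Nr1h3 and Rxrb the log2 fold changes were 0.11 (interval -0.02 to 0.25), 0.08 (interval -0.12 to 0.28) and 0.02 (interval -0.07 to 0.11). The difference between the mutants was therefore not shown for any of the 10 genes, although calls against WT were made in FUN025/+ eyecups only.

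**Figure D3:**
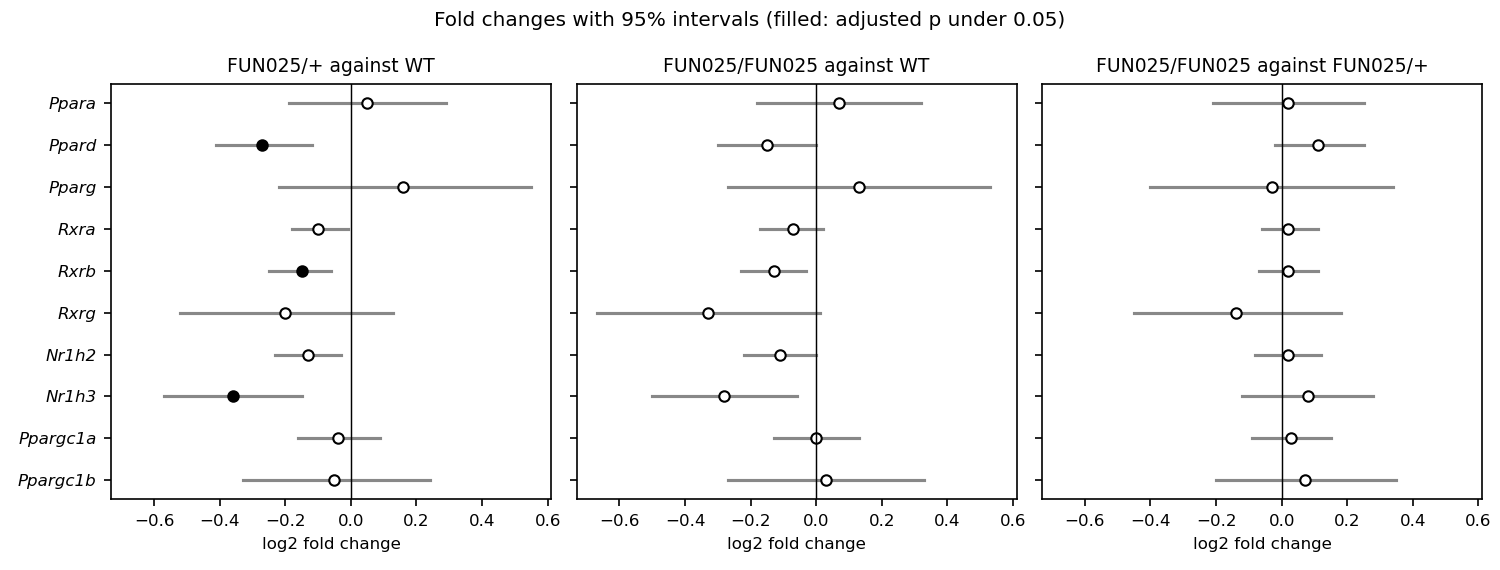
Log2 fold change of each gene with its 95% interval in the 3 comparisons, on 1 shared linear axis, with filled points for an adjusted p under 0.05. The filled points are Ppard, Rxrb and Nr1h3 in FUN025/+ against WT, at -0.27, -0.15 and -0.36.

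RefSeq promoter windows on GRCm38.p6, from 250 bases before to 50 bases after a start, were found for 9 of the 10 genes, in 15 windows. For the genes that were lower in FUN025/+ eyecups, the 80 bases nearest to the most upstream RefSeq start that hold no annotated exon are shown, to let their sequence be compared. Capitals mark exact matches to GGGCGG on either strand, the GC box bound by factors of the Sp1 family. They are chr17:28232620-28232699 (plus strand) for Ppard, chr17:34031732-34031811 (plus strand) for Rxrb and chr2:91195152-91195231 (minus strand) for Nr1h3. The stretches of Ppard and Rxrb end at the annotated gene start. That of Nr1h3 lies inside the annotated gene, before an internal start, so it is not a like stretch.
Ppard: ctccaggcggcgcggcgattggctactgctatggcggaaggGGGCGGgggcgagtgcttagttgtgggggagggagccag
Rxrb: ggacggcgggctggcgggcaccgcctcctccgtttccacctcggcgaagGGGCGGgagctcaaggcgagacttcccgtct
Nr1h3: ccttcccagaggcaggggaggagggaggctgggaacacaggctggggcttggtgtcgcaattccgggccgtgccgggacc

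The full window of Ppard held 3 GC boxes and those of Rxrb 2 and 4, while both windows of Nr1h3 held 0, so the 3 genes do not share this motif in these windows. A GC box was in 7 of the 15 windows and in 35.7% of 32851 windows of all genes. The windows of Ppard, Rxrb and Nr1h3 were 68.3%, 68.7% and 63.0% G or C at their most upstream starts, beside a median of 52.7% over all windows. The binding motif of PPAR with RXR, called DR1 and searched as AGGTCANAGGTCA with up to 2 mismatches on both strands, was in 1 of the 15 windows, that of the downstream start of Rxra, and in 3.86% of all windows. The binding motif of LXR with RXR, called DR4 and searched as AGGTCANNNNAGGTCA in the same way, was in 0 of the 15 and in 3.02% of all windows. Matches of different motifs may overlap, and no match says only that these letters are not in the window.

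Genes around the receptors were described in 10 lists of 140 genes, of which 126 were tested, by the number called and the median. For lower and higher calls in FUN025/FUN025 against WT the share over all genes was 7.02% and 7.03%. In FUN025/FUN025 against FUN025/+ it was 0.195% and 0.327%. An unadjusted p under 0.05 was reached by 28.8%, 28.6% and 6.23% of all genes in FUN025/+ against WT, FUN025/FUN025 against WT and FUN025/FUN025 against FUN025/+, and the counts at that level are to be read beside these shares.

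Among 10 tested receptors that also pair with RXR, such as the retinoic acid receptor Rara and the bile acid receptor Nr1h4, edgeR and DESeq2 called 0 in each comparison. At an unadjusted p under 0.05 there were 2, 1 and 0 in FUN025/+ against WT, FUN025/FUN025 against WT and FUN025/FUN025 against FUN025/+, and the medians were -0.046, 0.018 and 0.031. Leaving out 1 mouse gave 0 to 1 edgeR calls in FUN025/+ and 0 to 2 in FUN025/FUN025 eyecups against WT. Of 11 partners and targets of PGC-1, which include Esrra and the mitochondrial transcription factor Tfam, 0 were called in each comparison by edgeR and by DESeq2. There were 1, 3 and 2 at an unadjusted p under 0.05, and the medians were -0.079, -0.063 and -0.004. Esrra was at a log2 fold change of -0.08 in FUN025/+ and -0.06 in FUN025/FUN025 eyecups against WT, and Tfam at -0.13 and -0.05.

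Corepressors hold nuclear receptors in the off state. Of 11 tested, 3 were higher and 2 lower in FUN025/+ eyecups, and 3 higher and 3 lower in FUN025/FUN025 eyecups, with medians of 0.014 and 0.016. Lcor, a corepressor recruited by receptors bound to ligand, rose to 10.5 ± 2.05 CPM (n = 6) in FUN025/+ and 10.7 ± 1.24 CPM (n = 5) in FUN025/FUN025 eyecups from 5.51 ± 1.31 CPM (SD, n = 4) in WT. On the log2 scale this was 0.93 ± 0.162 (SE, adjusted p = 0.00102) and then 0.96 ± 0.168 (adjusted p = 0.000919). All mutant mice, at 8.37 CPM and more, were above all WT mice, at 6.89 CPM and less. Nrip1, a corepressor of fat and muscle metabolism, rose by 0.23 in FUN025/+ and by 0.43 in FUN025/FUN025 eyecups (adjusted p = 0.00807 and 5.51e-05). Picked after their values were seen, further called corepressors were Tbl1xr1, at 0.17 and 0.22, Gps2, at -0.24 and -0.24, and Bcor, at -0.22 in FUN025/FUN025 eyecups. Between the mutants edgeR and DESeq2 called 0 of 11, with 2 at an unadjusted p under 0.05. With rod and striated muscle markers as covariates 1 of 11 was called in FUN025/+ and 2 of 11 in FUN025/FUN025 eyecups against WT, with the fat cell covariate 2 and 6 of 11, and with the rod and muscle covariates Lcor was at 0.62 (adjusted p = 0.414) and 0.68 (adjusted p = 0.274). The Nrip1 call in FUN025/+ eyecups was lost with the rod and muscle covariates (0.40, adjusted p = 0.0798) and the fat cell covariate (0.19, adjusted p = 0.123), and that in FUN025/FUN025 eyecups was not (adjusted p = 0.00303 and 0.000166).

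Of 11 other coactivators, 1 was higher and 1 lower in FUN025/+ eyecups, and 1 was lower in FUN025/FUN025 eyecups. Lpin1, which works with PGC-1 alpha and also makes diacylglycerol, fell from 54.9 ± 5.56 CPM (SD, n = 4) to 41.2 ± 4.61 CPM (n = 6) in FUN025/+ and 43.4 ± 4.27 CPM (n = 5) in FUN025/FUN025 eyecups. The log2 fold changes were -0.42 and -0.34 (adjusted p = 0.00338 and 0.0158). Its call in FUN025/FUN025 eyecups was lost without WT replicate 1 (adjusted p = 0.0522). Prdm16, a partner of PGC-1 in brown fat, rose by 0.18 in FUN025/+ eyecups (adjusted p = 0.0371) and was at 0.17 in FUN025/FUN025 eyecups (adjusted p = 0.0519, and 0.0327 by DESeq2). In FUN025/FUN025 eyecups edgeR called it without WT replicate 1 (adjusted p = 0.0116), FUN025/+ replicate 1 or 4, or FUN025/FUN025 replicate 4. The same held with DESeq2 size factors (adjusted p = 0.0492) and with library totals without TMM (adjusted p = 0.042). The call in FUN025/+ eyecups was lost without any of WT replicates 2, 3 and 4, without FUN025/+ replicate 2, 3 or 5, with only the genotypes compared (adjusted p = 0.0723), with no low-count filter (adjusted p = 0.0534) and with either set of marker covariates. The medians of the list were -0.063 and -0.076. Between the mutants 0 of 11 were called by edgeR and DESeq2 and 0 were at an unadjusted p under 0.05. With rod and striated muscle markers as covariates Lpin1 was at -0.16 (adjusted p = 0.706) in FUN025/+ eyecups and at -0.12 (adjusted p = 0.756) in FUN025/FUN025 eyecups.

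Of 29 PPAR targets of fatty acid oxidation 24 were tested. In FUN025/+ eyecups 3 were lower and 0 higher, in FUN025/FUN025 eyecups 2 were lower and 2 higher, and between the mutants 1 was higher in FUN025/FUN025. DESeq2 called 4, 7 and 2 of the 24 in these comparisons, beside 2983, 3039 and 171 of the 18979 genes tested. The medians were -0.014, 0.015 and 0.056. Pdk4, which shuts glucose carbon out of mitochondria, fell to 23.0 ± 5.23 CPM (SD, n = 6) in FUN025/+ and 27.8 ± 1.89 CPM (n = 5) in FUN025/FUN025 eyecups from 42.9 ± 4.86 CPM (n = 4) in WT. The log2 fold changes were -0.90 ± 0.130 and -0.62 ± 0.135 (SE, adjusted p = 0.000324 and 0.00664). The WT mice were at 40.6, 47.6, 46.2 and 37.1 CPM and the highest mutant mouse at 30.6 CPM, so that the groups did not overlap. Ucp3, a mitochondrial carrier of muscle, fell by 0.57 in FUN025/+ and by 0.64 in FUN025/FUN025 eyecups on the log2 scale (adjusted p = 0.00747 and 0.00469). With rod and striated muscle markers as covariates the values were -0.91 and -0.63 for Pdk4 and -0.64 and -0.70 for Ucp3, and none was called (adjusted p of 0.182, 0.271, 0.324 and 0.188).

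Plin2, which coats lipid droplets, rose in FUN025/FUN025 eyecups. It was at 94.6, 88.6, 94.1 and 99.2 CPM in WT mice, between 73.6 and 106 CPM (median 84.5) in FUN025/+ mice and at 123, 110.2, 119.5, 123 and 127 CPM in FUN025/FUN025 mice. Every FUN025/FUN025 mouse was above every other mouse. The log2 fold change was 0.36 against WT (adjusted p = 0.0123) and 0.45 ± 0.079 against FUN025/+ (adjusted p = 0.00814). With the rod and striated muscle covariates the change against WT was 0.11 (adjusted p = 0.747), and with the fat cell covariate the change against FUN025/+ was 0.44 (adjusted p = 0.0507). Of the stretches of 31 bases of Plin2, 5.16% occur in other genes. Picked after their values were seen, the other called targets were Acsl1, which activates fatty acids, at 0.36 in FUN025/FUN025 eyecups, and Acadvl, at -0.14 in FUN025/+ eyecups (adjusted p = 0.046) and at -0.14 in FUN025/FUN025 eyecups (adjusted p = 0.0566). With the rod and muscle covariates 0 of the 24 targets were called against WT in either mutant. Acadvl shares 42.9% of its exon bases with Dvl2 and Acsl1 shares 9.91% with Gm45244, and the counting is not stated to use strand. Among the called targets of fatty acid oxidation, Plin2 and Ucp3 had a DR1 match in a promoter window, shown here with up to 20 bases on each side and the match in capitals. These are chr4:86670252-86670304 (minus strand) for Plin2, from -225 to -213 counted from the start, and chr7:100472920-100472972 (plus strand) for Ucp3, from -51 to -39, each with 2 mismatches.
Plin2: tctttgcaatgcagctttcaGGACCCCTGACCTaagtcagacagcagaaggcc
Ucp3: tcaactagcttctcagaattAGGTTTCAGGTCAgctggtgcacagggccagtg

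The Plin2 match reads AGGTCAGGGGTCC on its own strand. Plin2 and Ucp3 both carried a match to this motif, and their levels in FUN025/FUN025 eyecups went in opposite directions from WT. DR1 matches were found for 4 of the 21 genes of the oxidation list that had a window. Counted by window they were in 4 of 25, beside 3.86% of the windows of all genes.

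PPAR gamma targets of fat cells, of which 13 of 15 were tested, had medians of -0.380 in FUN025/+ and -0.293 in FUN025/FUN025 eyecups against WT, beside -0.0023 and -0.0071 over all genes. In FUN025/+ eyecups 3 were called lower and 0 higher. Fabp4, the fatty acid carrier of fat cells and vessels, was at 16.7 ± 7.32 CPM (SD, n = 4) in WT, 8.52 ± 2.42 CPM (n = 6) in FUN025/+ and 10.3 ± 1.82 CPM (n = 5) in FUN025/FUN025 eyecups. Its log2 fold change was -0.97 in FUN025/+ eyecups (adjusted p = 0.0166). WT replicate 4 held the highest value, 27.6 CPM, and without it the change was -0.62 (adjusted p = 0.048). With FUN025/+ and WT mice alone in the fit its adjusted p was 0.0502. Plin4, which coats fat droplets, fell by 0.38 on the log2 scale (adjusted p = 0.0364), a call lost without any of WT replicates 2, 3 and 4 and without any of FUN025/+ replicates 1, 2 and 3. With the rod and muscle covariates Plin4 turned to 0.31 (adjusted p = 0.287), and 0 of 13 genes were called. Pck1, picked after its values were seen, was called at 0.482 ± 0.222 CPM (n = 6) against 1.62 ± 1.34 CPM (n = 4). WT replicate 4 was at 3.61 CPM and the other WT mice at 0.779, 1.13 and 0.949 CPM. Of the list, 1 gene was called without WT replicate 4 or without FUN025/+ replicate 2 or 3. In FUN025/FUN025 eyecups edgeR called 0 of 13 and DESeq2 called 1, Fabp4 (adjusted p = 0.033), with 5 at an unadjusted p under 0.05. Between the mutants 0 of 13 were called by edgeR and DESeq2, with 0 at an unadjusted p under 0.05, and the median was 0.106. The list shares 5 genes with the fat cell markers, Plin4 among them, and with fat cell markers as a covariate 0 of 13 were called, with Plin4 at -0.47 (adjusted p = 0.0851) and Fabp4 at -0.52 (adjusted p = 0.282) in FUN025/+ eyecups.

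Of 20 listed LXR targets 17 were tested, and the FUN025/FUN025 comparison with WT called 6 as higher and 0 as lower, while in FUN025/+ eyecups edgeR and DESeq2 called 0, with 3 at an unadjusted p under 0.05. Against FUN025/+, 4 were higher in FUN025/FUN025 eyecups. The medians were 0.029, 0.120 and 0.180 for FUN025/+ against WT, FUN025/FUN025 against WT and FUN025/FUN025 against FUN025/+.

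Scd1, which makes monounsaturated fatty acids, was at 98.8, 93.2, 81.9 and 111 CPM in WT mice, between 74.9 and 111 CPM (median 102) in FUN025/+ mice and at 351, 320.0, 305, 379 and 366 CPM in FUN025/FUN025 mice. All FUN025/FUN025 mice were far above all other mice. The log2 fold change was 1.84 ± 0.109 against WT (adjusted p = 3.12e-08) and 1.81 ± 0.095 against FUN025/+ (adjusted p = 4.46e-08). Of the stretches of 31 bases of Scd1, 8.18% occur in other genes.

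Srebf1, the transcription factor that drives fatty acid synthesis, was at 166 ± 17.3 CPM (SD, n = 4) in WT, 176 ± 13.9 CPM (n = 6) in FUN025/+ and 278 ± 19.1 CPM (n = 5) in FUN025/FUN025 eyecups. It rose by 0.74 against WT (adjusted p = 2.83e-06) and by 0.66 against FUN025/+ (adjusted p = 1.47e-05). The remaining calls, picked after their values were seen, were Lpcat3, at 0.67 against WT and 0.52 against FUN025/+, and Fasn, at 0.42 and 0.39. Abca1, at 0.43, and Mylip, at 0.28, were called against WT alone. Abca1 exports cholesterol and Mylip breaks down the LDL receptor, while Scd1, Fasn and Srebf1 serve fatty acid synthesis and are also known targets of SREBP factors. Lpcat3 shares 10.2% of its exon bases with Emg1. Other known LXR targets did not pass the test: Abcg1 was at 0.12 (adjusted p = 0.387) and Apoe at 0.05 (adjusted p = 0.735) in FUN025/FUN025 eyecups against WT. With rod and striated muscle markers as covariates 5 of 17 were called against WT and 4 against FUN025/+, and leaving out any mouse left 6 against WT. Of the list, 0 of the 14 genes with a promoter window had a DR4 match.

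The 6 LXR targets rose in FUN025/FUN025 eyecups, in which Nr1h3 and Nr1h2 were at log2 fold changes of -0.28 (interval -0.50 to -0.06, adjusted p = 0.0802) and -0.11 (interval -0.22 to -0.00, adjusted p = 0.160) against WT. In FUN025/+ eyecups Nr1h3 fell and 0 of 17 LXR targets were called. Both comparisons share the 4 WT mice.

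**Figure D4:**
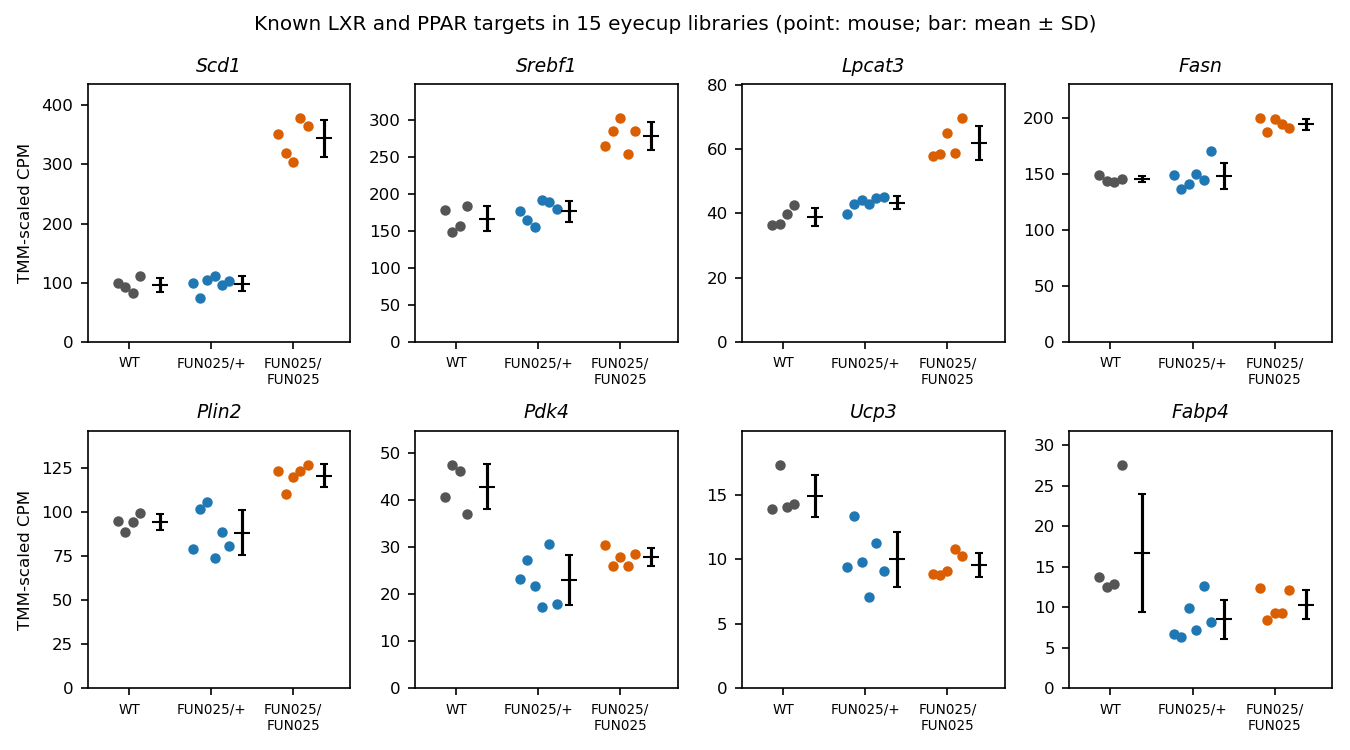
TMM-scaled CPM of 4 LXR targets in the upper row and 4 PPAR targets in the lower row, on axes from 0, with 1 point per mouse and the mean ± SD of each genotype. Scd1, Srebf1, Lpcat3, Fasn and Plin2 are highest in all 5 FUN025/FUN025 mice, while Pdk4 is lower in both mutants than in WT.

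Of 7 genes that make or break down oxysterols, 2 were higher and 0 lower in either mutant against WT, with medians of 0.254 and 0.222. Leaving out 1 mouse gave 0 to 3 calls in FUN025/+ eyecups, with 0 without WT replicate 2 or 4 and 1 without WT replicate 1 or FUN025/+ replicate 1 or 3. In FUN025/FUN025 eyecups it gave 1 to 3 calls, with 1 without WT replicate 1, 2 or 4 or FUN025/FUN025 replicate 1 or 3, and with the rod and muscle covariates there were 0 in both. With the fat cell covariate there were 0 in FUN025/+ and 1 in FUN025/FUN025 eyecups. Ch25h, which makes 25-hydroxycholesterol, rose from 5.16 ± 0.527 CPM (SD, n = 4) to 8.47 ± 1.16 CPM (n = 5) in FUN025/FUN025 eyecups (log2 fold change 0.72, adjusted p = 0.00142), and with the rod and muscle covariates it was at 0.65 (adjusted p = 0.176). In FUN025/+ eyecups Ch25h was at 6.64 ± 0.840 CPM (n = 6, log2 fold change 0.37, adjusted p = 0.0649), and was called without FUN025/+ replicate 5 (adjusted p = 0.0254) or FUN025/FUN025 replicate 5 (adjusted p = 0.0477). Cyp39a1, which breaks down 24-hydroxycholesterol, rose by 0.33 in FUN025/+ eyecups (adjusted p = 0.0219), and the call was lost without WT replicate 2 or WT replicate 4. The Cyp39a1 call was also lost with the fat cell covariate (0.28, adjusted p = 0.2) and the rod and muscle covariates (0.54, adjusted p = 0.18). Sult2b1, which sulfates cholesterol and oxysterols and was picked after its values were seen, rose in both mutants but stayed under 1 CPM on average. Ch25h shares 11.5% of its exon bases with Gm26902. Between the mutants 0 of 7 were called by edgeR and DESeq2, with 1 at an unadjusted p under 0.05.

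Of 9 tested genes of fatty acid and eicosanoid supply, 1 was higher in FUN025/FUN025 eyecups. This was Ptgs1, a cyclooxygenase, at 0.30 against WT (adjusted p = 0.0437), and the call was lost without WT replicate 1, 2 or 4, without FUN025/+ replicate 2, 3 or 5 and without FUN025/FUN025 replicate 1, 2 or 3. It was also lost with only the genotypes compared (0.30, adjusted p = 0.0818), the rod and muscle covariates (0.21, adjusted p = 0.609) and the fat cell covariate (0.31, adjusted p = 0.0544). The list had 0 edgeR calls and 1 DESeq2 call in FUN025/+ against WT and in FUN025/FUN025 against FUN025/+, with 3 and 4 genes at an unadjusted p under 0.05. Its medians were 0.077, 0.191 and 0.175.

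Of 13 genes of retinoic acid supply and retinoid targets, 1 was lower in FUN025/FUN025 eyecups than in WT, and leaving out 1 mouse gave 0 to 1 calls, with 0 without WT replicate 4. The medians of the list were 0.076, 0.000 and -0.055 in the 3 comparisons. It had 0 edgeR calls in the other comparisons, with 2 and 1 genes at an unadjusted p under 0.05 and 0 and 1 DESeq2 calls in FUN025/+ against WT and in FUN025/FUN025 against FUN025/+. Of 8 endothelial markers, 2 were called lower in FUN025/+ and 6 in FUN025/FUN025 eyecups against WT. Their sums were 1271 to 1464 CPM in WT, 1019 to 1371 CPM in FUN025/+ and 937 to 1150 CPM in FUN025/FUN025 eyecups, and their part in the results, the calls of Ppard, Nr1h3 and Rxrb included, was not tested.

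**Figure D5:**
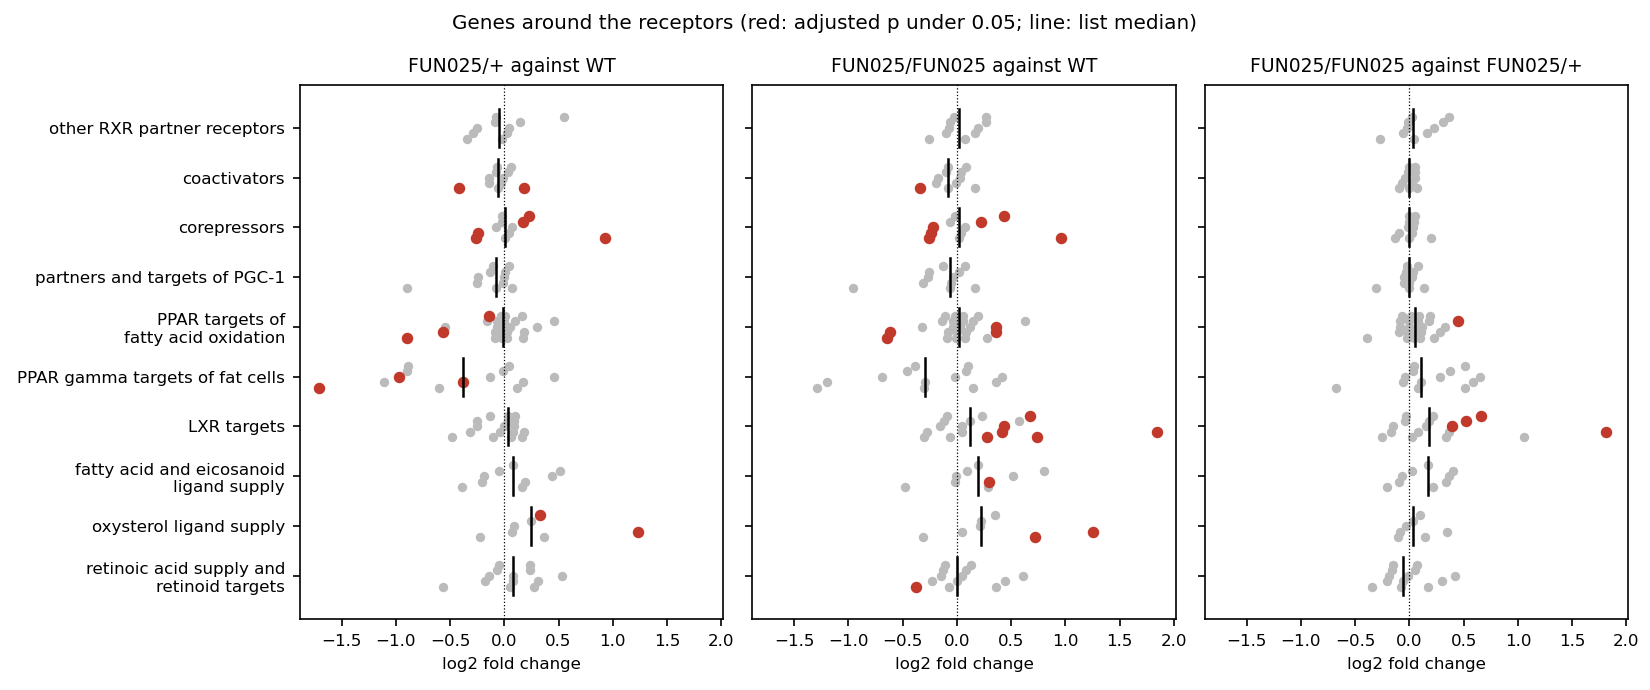
Log2 fold change of every tested gene of the 10 lists in the 3 comparisons, on 1 shared linear axis, with called genes in red and a line at each list median. LXR targets are shifted to the right in FUN025/FUN025 against WT and against FUN025/+, at medians of 0.120 and 0.180, and PPAR gamma targets of fat cells to the left in both comparisons with WT, at -0.380 and -0.293.

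Across the 15 libraries, the genes whose log2 CPM followed each of the 10 genes most closely were sought among 12325 protein-coding genes with a mean of at least 5 CPM. These values are a description, since genes were compared over the same libraries, which also share differences in depth and tissue. Ppard was closest to Entr1 (Pearson's r 0.894) and Snapc4 (0.893), Rxrb to Clasrp (0.893) and Cc2d1b (0.890), and Nr1h3 to Minpp1 (0.885) and 9430015G10Rik (0.877). The highest values were those of Nr1h2 with Pheta1 (0.936) and of Ppargc1b with Zfp318 (0.932). Pparg was closest to Ap3s1 (0.873), Rxra to Plec (0.873), Ppargc1a to Slc1a2 (0.833), Ppara to Cyb5d2 (0.817) and Rxrg to Rab12 (0.799). After removal of the genotype means the values were 0.787 for Ppard with Entr1, 0.769 for Rxrb with Clasrp and 0.766 for Nr1h3 with Minpp1.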

How the data were processed

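The authors deposited raw read counts per Ensembl gene for each of 15 eyecup libraries, without normalization. The libraries were made with oligo(dT) selection and the NEBNext Ultra RNA kit and sequenced as paired ends. The submitters' processing notes name FastQC 0.11.8, Trimmomatic 0.39, HISAT2 2.1.0, SAMtools and featureCounts 2.0.0 with GRCm38; settings and strand use were not given in the sources used here.

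Genotypes were taken from the sample titles. The 15% of genes with the lowest variance and then those failing filterByExpr were removed, and counts were tested with edgeR 4.0.16 (TMM, robust quasi-likelihood, R 4.3.3) with Benjamini-Hochberg adjustment. The fit was tested on simulated data. DESeq2 1.42.0, other scalings and filters, only the genotypes compared, a replicate block, marker covariates and leaving out each mouse were alternatives. Mice are separate animals. Symbols came from GENCODE M21 (55240 of 55421 genes) and promoters from RefSeq.

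The members and lists were chosen with earlier results of these data known. Named were the members, up to 2 called genes of at least 1 CPM with the largest change per list and comparison, the 2 genes most like each member (log2 CPM, prior count 2) and Tmem135. Protein sequences were not used here. Some called genes of the lists are counted but not reported here by name.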

Additional observations from a re-analysis of the deposited data

Results flagged for a closer look

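Of 60 groups of values tested by Dixon's rule, 3 held a sample far from the others, and chance flags about 1 in 20 groups. None of the 3 was among the 30 groups of the 10 genes. Summed cone markers were at 99.7 CPM in the highest of 4 WT mice, with the next at 64.6 CPM. Summed Schwann cell markers were at 674 CPM in the highest of 6 FUN025/+ mice, with the next at 449 CPM, and summed melanocyte markers at 9672 CPM in the highest of 4 WT mice, with the next at 8576 CPM.

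For 5 genes around the receptors the effects of the FUN025/+ and FUN025/FUN025 genotypes differed by edgeR's quasi-likelihood test of FUN025/FUN025 against FUN025/+. The log2 fold changes between the mutants were 0.45 for Plin2, 0.66 for Srebf1, 0.52 for Lpcat3, 1.81 for Scd1 and 0.39 for Fasn. All 5 FUN025/FUN025 mice were above all 6 FUN025/+ mice for each of these genes.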

How the results depend on the processing

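With WT and FUN025/+ compared, the number of the 10 genes called was 3 and became 0 with rod and striated muscle markers as covariates and 0 with fat cell markers as a covariate; leaving out 1 mouse gave 0 to 3 calls, with 1 without WT replicate 3 and 0 without WT replicate 4. With FUN025/FUN025 against WT the range was 0 to 1. Over all genes the calls for FUN025/+ against WT were 2600, and became 189 with the rod and muscle covariates and 687 with the fat cell covariate. For FUN025/FUN025 against WT they were 2666, and 498 with the rod and muscle covariates. For FUN025/FUN025 against FUN025/+ they were 99, and became 171 with the DESeq2 Wald test and 61 with the fat cell covariate. Leaving out 1 mouse gave 1446 to 2722, 1528 to 2701 and 68 to 110 calls in the same order, with the lowest of the comparisons with WT, 1446 and 1528, without WT replicate 4. The covariates differ between genotypes themselves, and the cause was not tested. Plin4 was reversed in FUN025/+ eyecups with the rod and muscle covariates, from -0.38 to 0.31 (adjusted p = 0.287). Without WT replicate 2, Ppargc1a and Ppargc1b, which were not called, were at 0.04 and 0.12 in FUN025/+ eyecups.

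Replicate numbers come from the labels and same-numbered mice are different animals; their deviations correlated at -0.385 to 0.133. With same-numbered mice as blocks (replicate block) edgeR called 2 of the 10 genes in FUN025/+ against WT, as Nr1h3 had an adjusted p of 0.0518, and 2010, 2137 and 80 genes over all in the 3 comparisons. The Plin2 difference between the mutants was 0.43 (adjusted p = 0.0961) under the block. Genes with few reads, such as Rxrg, Pparg and Ppara, allowed only wide intervals.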
